A study of Mus musculus with 27 samples.

Results

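The Ly6 and Gml genes described here are 7 members of the Ly6/uPAR family, Gml, Gml2, Ly6a, Ly6e, Ly6g, Ly6d and Ly6c1. They were taken by symbol from a table of 55401 mouse genes, of which 11118 were expressed highly enough to be tested. The symbols were selected on earlier values of these libraries, namely their differences from the controls after irradiation or CBLB502. RNA of intestine, the only tissue name in the sample titles, was sequenced in 27 libraries, 3 in each of 9 groups. The mice were male wild-type C57BL/6, 6 to 8 weeks old per the design text, and the irradiation source there is 60Co γ-rays. The groups were 6 Gy sampled at 6 h, 6 Gy at 24 h, 15 Gy at 6 h, 15 Gy at 24 h, 15 Gy at 3 d, CBLB502 alone at 24 h, 15 Gy plus CBLB502 at 24 h, 6 Gy plus CBLB502 at 24 h, and an untreated control. CBLB502, an engineered flagellin that activates Toll-like receptor 5, was given into the peritoneum at 0.2 mg/kg, and the design text places it 0.5 h before 15 Gy. That text lists 7 groups of 10 mice with a PBS group, whereas the labels give 9 groups and an untreated control. No library is labelled PBS, so CBLB502 alone was set against untreated mice, and how many mice went into a library is not given in the sources used here. Differences between groups are therefore measured against the spread between libraries, which may be technical in part.

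Ly6/uPAR proteins are small and cysteine-rich, and many of them are held on the outer cell surface by a glycosylphosphatidylinositol (GPI) anchor. Several serve as surface markers of blood, vessel or epithelial cells. Ly6a, also called Sca-1, marks haematopoietic stem cells and is raised by interferon, and in mouse intestine it is known as a marker of the fetal-like epithelium that forms after injury. Ly6e is an interferon-stimulated GPI-anchored protein, Ly6g marks neutrophils, Ly6c1 is found on monocytes and endothelium, and Ly6d on early B-lineage cells and squamous epithelia. The human counterpart of Gml is known as a target of p53.

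All 7 genes lie on chromosome 15. On GRCm38 they span 397 kb, and the order along the chromosome is Ly6d, Gml, Gml2, Ly6e, Ly6a, Ly6c1 and Ly6g. Ly6d (ENSMUSG00000034634) occupies chr15:74762056-74763620 on the minus strand. Gml (ENSMUSG00000068349) occupies chr15:74813452-74818815 on the minus strand, and Gml2 (ENSMUSG00000068600) chr15:74819071-74834871 on the plus strand, so that the pair point away from each other with 256 bp between their starts. Ly6e (ENSMUSG00000022587) occupies chr15:74955051-74959905 on the plus strand, and Ly6a (ENSMUSG00000075602) chr15:74994877-74998031 on the minus strand. Ly6c1 (ENSMUSG00000079018) occupies chr15:75044018-75048830 on the minus strand, and Ly6g (ENSMUSG00000022582) chr15:75155240-75159126 on the plus strand. The values of a gene cover its whole annotated length. The wider window between Psca and Gpihbp1 measures 883 kb and holds 50 annotated genes, 20 of them at 0 counts in all 27 libraries.

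The coding sequences of neighbours are close, which bears on how reads may be assigned to them. Over the first 90 coding bases (GENCODE vM21), Gml and Gml2 are identical, 0 of 90 bases differing, and over the whole coding sequence they are 86.6% identical. The shared start is shown because the pair share stretches of transcript sequence and their values moved together:
Gml and Gml2: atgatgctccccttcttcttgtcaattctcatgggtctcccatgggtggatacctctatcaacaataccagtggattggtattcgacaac
Ly6g and Ly6c1 differ at 7 of their first 90 coding bases, and the capitals mark those positions:
Ly6g: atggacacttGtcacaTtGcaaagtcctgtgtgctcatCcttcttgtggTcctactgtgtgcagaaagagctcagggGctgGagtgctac
Ly6c1: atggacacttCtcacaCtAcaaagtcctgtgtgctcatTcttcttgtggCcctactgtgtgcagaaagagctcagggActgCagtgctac

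Of the transcript stretches of 50 bases, 18.7% of those of Gml also occur in Gml2, and 14.4% of those of Gml2 occur in Gml. The share found in other genes is 32.8% for Ly6c1 (Ly6c2, Ly6a and Ly6i) and 19% for Ly6a. It is 0.448% for Ly6g, and Ly6e and Ly6d share 0. How multiply mapped reads were counted is not given in the sources used here, so the split of counts between Gml and Gml2, and the low counts of Ly6c1, are uncertain. Gml2 also overlaps Cyp11b1 by 747 bp. Cyp11b1 had 0.502 to 1.41 CPM (TMM-scaled counts per 1 M) in 6 Gy at 6 h and 1.999 to 2.75 CPM in 15 Gy at 3 d, against 0 in the controls, and its part in the Gml2 counts was not tested.

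RefSeq promoter windows on GRCm38.p6, running from 250 bases before to 50 after the start, matched for Ly6c1 and Ly6g, 2 of the 7 genes. They are shown because windows matched for no other of the 7 genes, and nothing on expression is read from their likeness. The capitals mark a TATAAA:
Ly6c1, chr15:75048788-75049087, minus strand: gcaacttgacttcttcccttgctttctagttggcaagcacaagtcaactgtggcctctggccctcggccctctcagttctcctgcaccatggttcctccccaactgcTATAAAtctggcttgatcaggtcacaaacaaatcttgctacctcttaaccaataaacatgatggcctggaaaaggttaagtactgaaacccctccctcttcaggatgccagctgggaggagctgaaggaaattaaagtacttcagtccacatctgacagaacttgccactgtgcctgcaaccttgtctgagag
Ly6g, chr15:75155011-75155310, plus strand: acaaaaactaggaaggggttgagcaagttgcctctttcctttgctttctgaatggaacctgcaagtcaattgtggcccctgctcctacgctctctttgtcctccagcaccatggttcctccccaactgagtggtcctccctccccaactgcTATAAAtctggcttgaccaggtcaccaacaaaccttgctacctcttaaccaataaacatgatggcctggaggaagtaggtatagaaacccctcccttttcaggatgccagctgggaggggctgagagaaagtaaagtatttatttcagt

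Aligned to each other, the windows were identical at 213 of 279 columns (76.3%). TATAAA began at -143 in Ly6c1 and at -99 in Ly6g, and CCAAT at -95 in Ly6c1 and at -51 in Ly6g, counted from the annotated start. Searched on both strands, TATAAA occurs in 13.6% and CCAAT in 37.4% of the 32851 promoter windows. The interferon-stimulated response element, searched as GAAA, 2 bases and GAAA and found in 3.44% of all windows, and the STAT motif TTCNNNGAA, found in 8.3%, have no match in these 2 windows. A match describes letters and shows no binding.

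Depth was similar across the study, 57.4 to 87.1 M counts per library. Total counts over the 27 libraries were 110005 for Gml, 101965 for Ly6e, 51335 for Gml2, 43620 for Ly6d, 17543 for Ly6a, 1587 for Ly6c1 and 1393 for Ly6g. All 7 genes passed the filter of at least 1 FPKM (fragments per kilobase and per 1 M fragments) in at least 3 libraries, but Ly6g and Ly6c1 reached it only in the 3 libraries of 6 Gy at 6 h. Epithelial RNA was abundant in every library (Vil1, a brush-border protein, 2313 to 4824 CPM). Both 24 h groups of 6 Gy, 6 libraries with or without CBLB502, differed from the others. Over all tested genes, 33% were called against the controls in 6 Gy at 24 h and 37.3% in 6 Gy plus CBLB502. In each of these groups 19 of 22 pancreatic enzyme genes were called higher than in the controls and 1 lower. The summed level of 23 such genes overlapped the controls. It was 2530 to 11720 CPM in 6 Gy at 24 h, 3704 to 5905 CPM in 6 Gy plus CBLB502 and 3043 to 5819 CPM in the controls. Stromal genes, 13 in all, summed to 44.0 to 145 CPM in 6 Gy at 24 h and 45.6 to 81.0 CPM in 6 Gy plus CBLB502, against 2.65 to 7.86 CPM in the controls, and 5 of the 7 tested were called higher in each group. The 11 B cell genes summed to 30.8 to 148 CPM in 6 Gy at 24 h and 49.8 to 256 CPM in 6 Gy plus CBLB502, against 12.2 to 29.2 CPM in the controls. Results on those groups carry these differences, and their part in them was not tested.

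The genes were chosen with their changes in these libraries known, so their own values are given as a description, without a test. Per length, mean levels over all libraries were 41.9 FPKM for Gml, 25.7 FPKM for Ly6d, 16.2 FPKM for Gml2, 12.5 FPKM for Ly6e, 6.45 FPKM for Ly6a, 0.660 FPKM for Ly6g and 0.435 FPKM for Ly6c1. Medians were much lower for Gml (5.46 FPKM), Ly6d (2.79 FPKM) and Gml2 (1.96 FPKM), because a few groups held most of their RNA. For Ly6e, the median of 9.36 FPKM was close to the mean. In RNA from a mixture of cells, fewer cells of a type and less RNA per cell cannot be told apart.

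**Figure D1:**
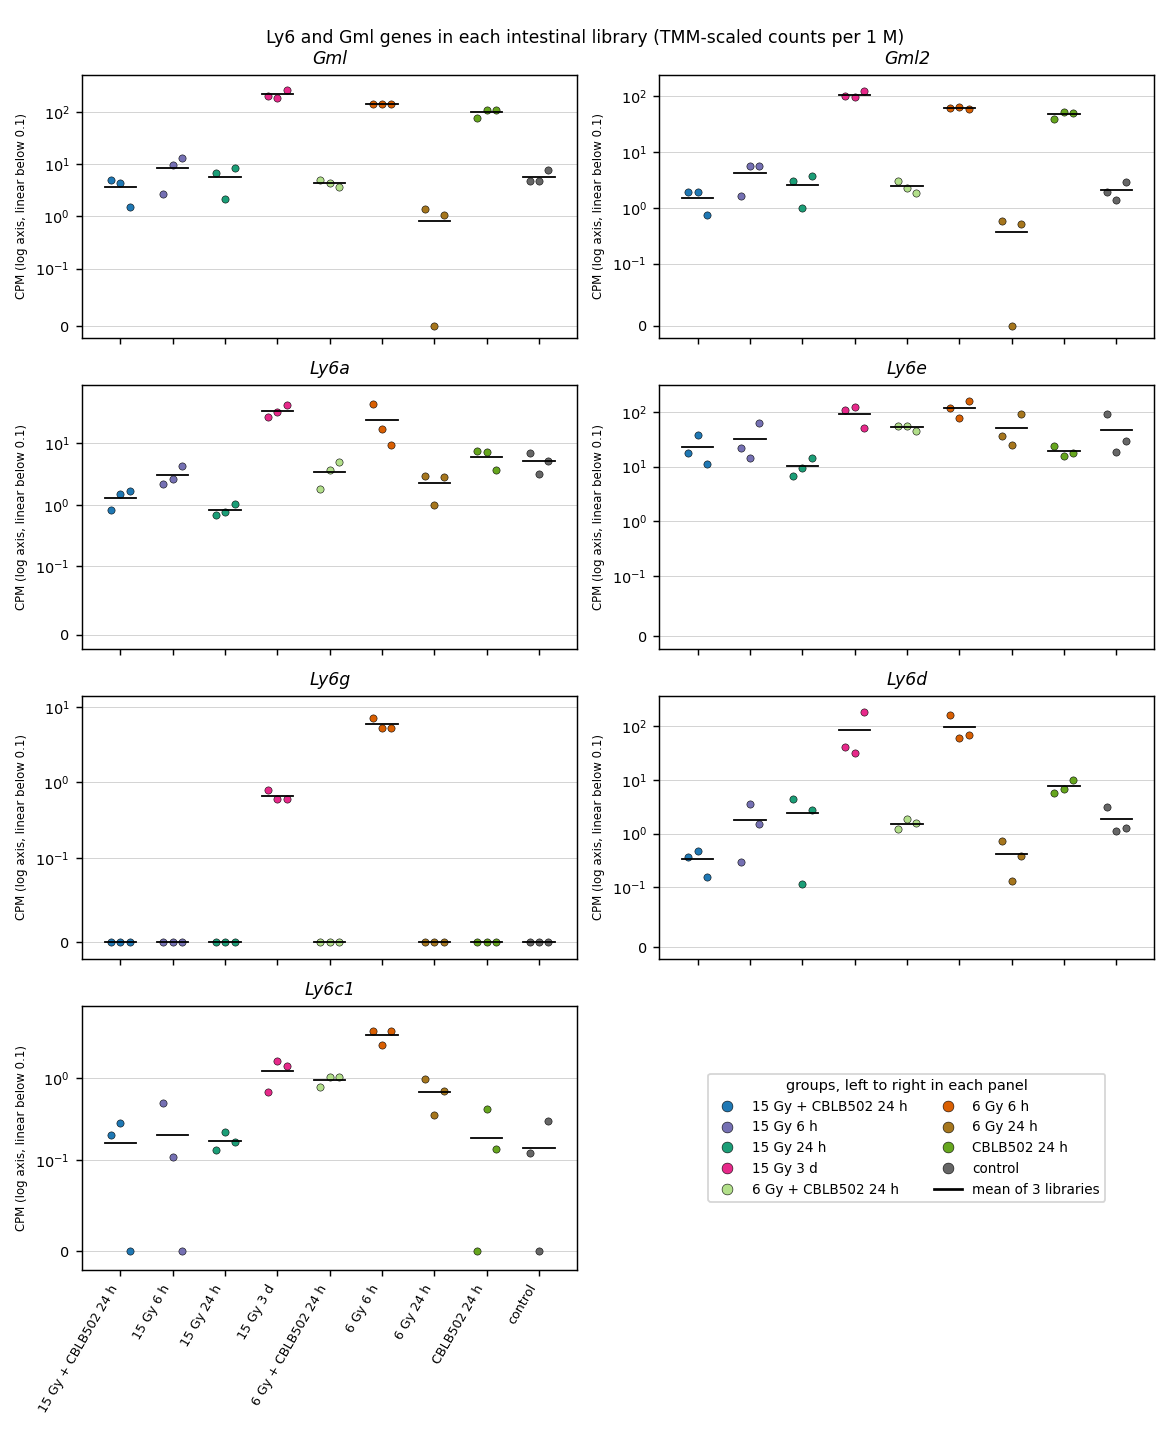
TMM-scaled CPM (log axis, linear below 0.1) of the 7 genes in each of the 27 libraries, one point per library and one panel per gene, with libraries at 0 drawn at the bottom and a bar at each group mean. Gml and Gml2 are high in 15 Gy at 3 d, 6 Gy at 6 h and CBLB502 alone, and Ly6g has counts in 6 libraries only.

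Gml was high in 3 groups and low in the other 6. It had 146, 142 and 142 CPM in 6 Gy at 6 h, 208, 184 and 264 CPM in 15 Gy at 3 d, and 76.9, 109.8 and 109.7 CPM in CBLB502 alone, against 4.83, 4.71 and 7.90 CPM in the controls. Every library of these 3 groups lay above every control library, and the 3 groups did not overlap one another. The ratio of group means to the control was 24.7 in 6 Gy at 6 h, 37.6 in 15 Gy at 3 d and 16.99 in CBLB502 alone. On the log2 scale the differences were 4.62 ± 0.77, 5.23 ± 0.79 and 4.09 ± 0.75 (SE), in that order.

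In the remaining groups Gml stayed near or under the control. It had 2.65, 9.78 and 13.2 CPM in 15 Gy at 6 h, and 6.83, 2.12 and 8.40 CPM in 15 Gy at 24 h, both overlapping the control libraries. It had 4.997, 4.30 and 1.54 CPM in 15 Gy plus CBLB502 and 5.06, 4.37 and 3.70 CPM in 6 Gy plus CBLB502, which overlapped the control libraries as well. In 6 Gy at 24 h it had 1.40, 0 and 1.07 CPM, below all controls, with a log2 difference of -2.83 ± 0.74 that ran from -3.45 without replicate 1 of that group to -2.24 without its replicate 2. Ordered by mean, 15 Gy at 3 d (219 ± 41.1 CPM), 6 Gy at 6 h (143 ± 2.16 CPM) and CBLB502 alone (98.8 ± 19.0 CPM) came first, the next 5 groups each overlapped their neighbour, and 6 Gy at 24 h (0.823 ± 0.732 CPM) came last (SD, n = 3 each).

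Gml2, its divergent neighbour, followed the same order over the first groups. It had 61.3, 62.6 and 59.5 CPM in 6 Gy at 6 h, 100.3, 96.1 and 122 CPM in 15 Gy at 3 d and 38.5, 52.8 and 49.7 CPM in CBLB502 alone, against 1.90, 1.39 and 2.95 CPM in the controls. Again no library of these groups overlapped the controls, and the log2 differences were 4.88 ± 0.68 in 6 Gy at 6 h, 5.67 ± 0.70 in 15 Gy at 3 d and 4.50 ± 0.67 in CBLB502 alone (SE). Gml2 had 0.579, 0 and 0.521 CPM in 6 Gy at 24 h, all below the controls, with a log2 difference of -2.51 ± 0.67 that was -1.91 without replicate 2 of that group. Group means elsewhere lay between 1.52 ± 0.667 CPM in 15 Gy plus CBLB502 and 4.26 ± 2.29 CPM in 15 Gy at 6 h, beside 2.08 ± 0.796 CPM in the controls (SD, n = 3 each).

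Across the 27 libraries, Spearman's rho between Gml and Gml2 was 0.987. It is given as a description because the genes share sequence, and how far their counts share reads is not known. Their ratio per length, Gml over Gml2 in FPKM, had a median of 2.64 and ran from 1.98 to 4.11 over the 26 libraries with counts of both. The ratio thus varied far less than the level of either gene.

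Ly6d, which precedes Gml on the chromosome, was high in the irradiated groups in which Gml was high, with a wide spread between replicates. It had 162, 61.6 and 67.7 CPM in 6 Gy at 6 h and 41.9, 31.9 and 186 CPM in 15 Gy at 3 d, against 3.15, 1.14 and 1.297 CPM in the controls. Neither group overlapped the controls, while the 2 groups overlapped each other. The log2 differences were 5.71 ± 1.02 in 6 Gy at 6 h and 5.54 ± 1.01 in 15 Gy at 3 d (SE). The value in 15 Gy at 3 d was 4.31 without replicate 3 of 15 Gy at 3 d and 6.16 without control replicate 1, and the value in 6 Gy at 6 h was 6.32 without that control.

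In CBLB502 alone Ly6d had 5.78, 6.83 and 10.1 CPM, above all 3 controls, with a log2 difference of 2.03 ± 0.88 that was 2.64 without control replicate 1. It lay below the controls in 6 Gy at 24 h (0.741, 0.134 and 0.381 CPM) and in 15 Gy plus CBLB502 (0.375, 0.472 and 0.153 CPM). These log2 differences were -2.16 ± 0.96 and -2.46 ± 0.97 in that order, and -1.53 and -1.86 without control replicate 1. The first was -2.85 without replicate 1 of 6 Gy at 24 h. The libraries of 15 Gy at 6 h (0.300 to 3.61 CPM), 15 Gy at 24 h (0.116 to 4.35 CPM) and 6 Gy plus CBLB502 (1.20 to 1.84 CPM) overlapped the controls.

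Ly6a moved less. It had 43.9, 16.96 and 9.23 CPM in 6 Gy at 6 h and 26.1, 31.8 and 41.0 CPM in 15 Gy at 3 d, against 6.97, 3.20 and 5.10 CPM in the controls. Both groups lay above all controls and overlapped each other, with log2 differences of 2.20 ± 0.51 and 2.70 ± 0.52 (SE) in that order. The value in 6 Gy at 6 h rested in part on 1 library and was 1.37 without its replicate 1.

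In CPM, the groups 6 Gy at 24 h, 15 Gy at 24 h and 15 Gy plus CBLB502 lay below all controls for Ly6a. It had 2.88, 0.983 and 2.81 CPM in 6 Gy at 24 h, 0.679, 0.759 and 1.02 CPM in 15 Gy at 24 h and 0.812, 1.48 and 1.64 CPM in 15 Gy plus CBLB502. Their log2 differences were -1.19 ± 0.51, -2.63 ± 0.54 and -1.95 ± 0.52 (SE) in that order. In FPKM, Ly6a in 6 Gy at 24 h overlapped the controls (2.82, 0.901 and 2.87 against 4.56, 2.11 and 3.34 FPKM). CBLB502 alone (3.64 to 7.42 CPM), 15 Gy at 6 h (2.16 to 4.29 CPM) and 6 Gy plus CBLB502 (1.82 to 4.90 CPM) overlapped the controls. In CBLB502 alone, then, Ly6a overlapped the controls while Gml lay above them.

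Ly6e varied widely between the control replicates. It had 119, 78.3 and 156 CPM in 6 Gy at 6 h and 108, 122 and 51.6 CPM in 15 Gy at 3 d, against 93.7, 18.4 and 29.7 CPM in the controls. Both groups overlapped the controls because of control replicate 1. The log2 differences were 1.32 ± 0.61 and 0.99 ± 0.61 (SE) in that order, and 2.30 and 1.97 without that library.

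Ly6e lay below all controls in 15 Gy at 24 h, where it had 6.73, 9.57 and 14.3 CPM, with a log2 difference of -2.21 ± 0.63 that was -1.24 without control replicate 1. CBLB502 alone (15.4 to 23.6 CPM), 15 Gy plus CBLB502 (11.1 to 38.8 CPM), 15 Gy at 6 h (14.5 to 61.7 CPM), 6 Gy at 24 h (24.6 to 92.3 CPM) and 6 Gy plus CBLB502 (44.9 to 56.0 CPM) overlapped the controls. Its log2 difference in CBLB502 alone was -1.31 ± 0.61, and -0.33 without control replicate 1. Its difference in 15 Gy at 6 h was -0.54 ± 0.60, 0.44 without that control and -1.39 without replicate 3 of 15 Gy at 6 h.

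Ly6g was detected in 2 groups. It had 7.01, 5.31 and 5.28 CPM in 6 Gy at 6 h, from 415, 423 and 390 counts, and 0.790, 0.599 and 0.610 CPM in 15 Gy at 3 d, from 64, 53 and 48 counts. The other 21 libraries, the controls among them, had 0 counts, and 3 counts in the group was taken as the limit that a count of 0 allows, which covers counting error only. Against that limit Ly6g was at least 404-fold higher in 6 Gy at 6 h and at least 45.9-fold higher in 15 Gy at 3 d than in the controls.

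Ly6c1 was low throughout. It had 3.74, 2.51 and 3.68 CPM in 6 Gy at 6 h and 0.679, 1.61 and 1.39 CPM in 15 Gy at 3 d, against 0.123, 0 and 0.298 CPM in the controls, which rest on 8, 0 and 20 counts. It also lay above the controls in 6 Gy at 24 h (0.956, 0.352 and 0.699 CPM) and in 6 Gy plus CBLB502 (0.777, 1.03 and 1.03 CPM). The log2 differences were 4.55 ± 1.26 in 6 Gy at 6 h, 3.12 ± 1.20 in 15 Gy at 3 d, 2.25 ± 1.17 in 6 Gy at 24 h and 2.75 ± 1.18 in 6 Gy plus CBLB502 (SE). Single controls moved them to 3.96 or 5.75, 2.53 or 4.32, 1.66 or 3.46 and 2.15 or 3.96, the lower value being without control replicate 2 and the higher without control replicate 3. Ly6c1 overlapped the controls in 15 Gy at 6 h, 15 Gy at 24 h, CBLB502 alone and 15 Gy plus CBLB502.

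**Figure D2:**
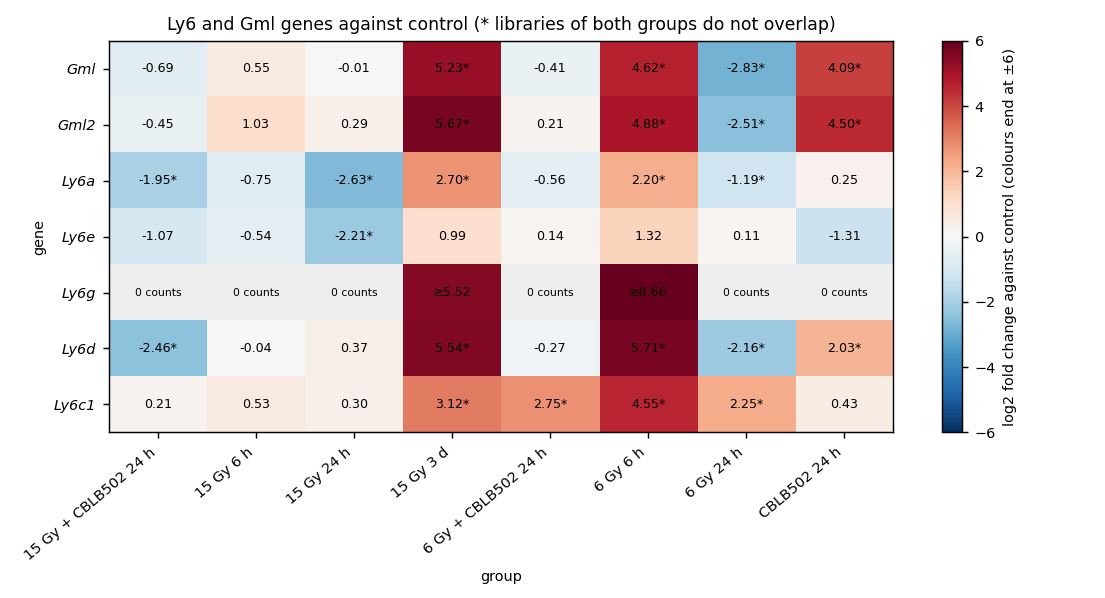
Log2 difference from the untreated control for the 7 genes (rows) in the 8 treated groups (columns), as a colour scale with printed values. A star marks libraries that do not overlap the 3 controls in CPM, and ≥ marks a lower bound for Ly6g. The columns 6 Gy at 6 h and 15 Gy at 3 d each hold 5 stars and the bound of Ly6g, and 15 Gy at 6 h holds 0 stars.

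Counted over the genes, 6 of 7 lay above all controls in 6 Gy at 6 h and 0 below, beside 20.3% of all tested genes above and 19.5% below. The same count in 15 Gy at 3 d was 6 above and 0 below, beside 20.8% and 20.4%. Ly6e was the exception in both. CBLB502 alone had 3 of 7 above (Gml, Gml2 and Ly6d) and 0 below, beside 10.5% of tested genes above and 11.4% below. For 6 Gy at 24 h the count was 1 above (Ly6c1) and 4 below, beside 25.2% and 21.6%. Of the 4 below, Ly6a overlapped the controls in FPKM. For 15 Gy at 24 h the count was 0 above and 2 below (Ly6a and Ly6e), beside 11.6% each. With CBLB502, 15 Gy had 0 above and 2 below (Ly6a and Ly6d), beside 18.9% and 16.2%, and 6 Gy had 1 above (Ly6c1) and 0 below, beside 28.3% and 22.2%. At 6 h after 15 Gy 0 of 7 lay above or below all controls, beside 18.7% of tested genes above and 20.9% below. The choice of the genes used these differences, so nothing is read from the counts, and all these comparisons share the 3 controls.

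Set against 6 Gy at the same time of 6 h, 15 Gy gave lower values of all 7 genes without overlap, beside 26.5% of tested genes lower and 23.9% higher without overlap. The log2 differences were -4.07 ± 0.75 for Gml, -3.84 ± 0.64 for Gml2, -2.94 ± 0.53 for Ly6a, -1.86 ± 0.62 for Ly6e, -5.75 ± 1.02 for Ly6d and -4.02 ± 1.21 for Ly6c1 (SE). Single libraries moved the values of Ly6a to -2.12 (without 6 Gy at 6 h replicate 1), of Ly6e to -2.72 (without 15 Gy at 6 h replicate 3), of Ly6d to -6.77 (without 15 Gy at 6 h replicate 2) and of Ly6c1 to -5.89 (without 15 Gy at 6 h replicate 1). Ly6g was at least 435-fold lower in 15 Gy at 6 h. The genes were chosen on their differences from the controls in these libraries. Ly6g and Ly6c1 also passed the filter only through 6 Gy at 6 h. Lower values in 15 Gy at 6 h are therefore a description, and nothing on dose is read from them.

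Of the groups with high Gml, 6 Gy at 6 h and 15 Gy at 3 d differed from the controls in other ways too. Some of these traits were shared by groups with low Gml, and CBLB502 alone showed few of them. A score of circadian clock genes was the mean log2 CPM of 3 genes minus that of 6 others, centred over the libraries. In 6 Gy at 6 h, 2 of the 3 rose and 6 of the 6 fell. The score ran from 2.01 to 2.98 in 6 Gy at 6 h and from 1.61 to 2.85 in 15 Gy at 3 d, against -2.79 to -2.09 in the controls. It was -2.63 to -0.889 in CBLB502 alone, where Gml was high, and 0.732 to 2.94 in 15 Gy plus CBLB502, where Gml was low. The mitochondrial share of counts was 13.7 to 28.7% in 6 Gy at 6 h and 4.59 to 9.03% in 15 Gy at 6 h, against 11.8 to 17.8% in the controls. The summed level of 12 colon marker genes was 3550 to 4790 CPM in 6 Gy at 6 h, 1922 to 3286 CPM in 15 Gy at 3 d and 889 to 1653 CPM in CBLB502 alone, against 1051 to 1419 CPM in the controls. Enterocyte genes, 18 in all, summed to 73024 to 85466 CPM in 6 Gy at 6 h and 101470 to 146633 CPM in 15 Gy at 3 d, against 135322 to 166135 CPM in the controls. Of these 18, 1 rose and 13 fell in 6 Gy at 6 h, 1 rose and 9 fell in 15 Gy at 3 d, and 1 rose and 2 fell in CBLB502 alone. Where Gml was low, the enterocyte sum was 70850 to 83607 CPM in 6 Gy at 24 h (1 rose, 12 fell). In 6 Gy plus CBLB502 it was 61932 to 87979 CPM (1 rose, 10 fell). Of 11 tested ileum markers, 2 rose and 6 fell in 6 Gy at 6 h, 1 rose and 4 fell in 15 Gy at 3 d, and 1 rose and 2 fell in CBLB502 alone. In each 24 h group of 6 Gy, 1 rose and 7 fell. Over all tested genes, 28.4% were called in 6 Gy at 6 h, 29.4% in 15 Gy at 3 d and 5.74% in CBLB502 alone. In 6 Gy at 24 h 33% were called, and in 6 Gy plus CBLB502 37.3%. The part of the clock, mitochondrial, colon, enterocyte and ileum differences in the values of the 7 genes was not tested.

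Groups with and without CBLB502 were set side by side within each dose at 24 h. The genes were chosen on their differences from the controls in these libraries. The values are therefore a description, and nothing on CBLB502 is read from them. In 15 Gy plus CBLB502 against 15 Gy at 24 h, 0 of 7 genes separated, beside 6.31% of tested genes higher and 5.76% lower without overlap. Gml averaged 3.61 ± 1.83 CPM with CBLB502 and 5.79 ± 3.27 CPM without, and Ly6d 0.333 ± 0.164 CPM with CBLB502 and 2.40 ± 2.14 CPM without (SD, n = 3 each). The log2 differences were -0.68 for Gml, -0.74 for Gml2, 0.68 for Ly6a, 1.15 for Ly6e, -2.84 for Ly6d and -0.09 for Ly6c1. Without replicate 2 of 15 Gy plus CBLB502 the value of Ly6e was 0.50 and that of Ly6c1 -0.77, and without replicate 1 of 15 Gy at 24 h that of Ly6d was -2.07. CBLB502 alone, without radiation, gave 98.8 ± 19.0 CPM of Gml.

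In 6 Gy plus CBLB502 against 6 Gy at 24 h, 3 of 7 genes lay higher without overlap, beside 5.92% of tested genes, and 0 of 7 lower, beside 4.84%. The choice of the genes used values of these libraries, so nothing is read from the count. Gml averaged 4.38 ± 0.682 CPM with CBLB502 and 0.823 ± 0.732 CPM without, with a log2 difference of 2.42 ± 0.73 that ran from 1.83 to 3.04 without replicate 2 or replicate 1 of 6 Gy at 24 h. Gml2 averaged 2.41 ± 0.614 CPM with CBLB502 and 0.367 ± 0.319 CPM without, a log2 difference of 2.72 ± 0.67 that was 2.13 without replicate 2 of 6 Gy at 24 h. Ly6d averaged 1.54 ± 0.321 CPM with CBLB502 and 0.418 ± 0.305 CPM without, a log2 difference of 1.89 ± 0.95 that was 2.58 without replicate 1 of 6 Gy at 24 h. With CBLB502 these 3 genes overlapped the untreated controls. Ly6a, Ly6e and Ly6c1 overlapped between the groups, with log2 differences of 0.63, 0.03 and 0.50, and that of Ly6e was 0.78 without replicate 3 of 6 Gy at 24 h.

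**Figure D3:**
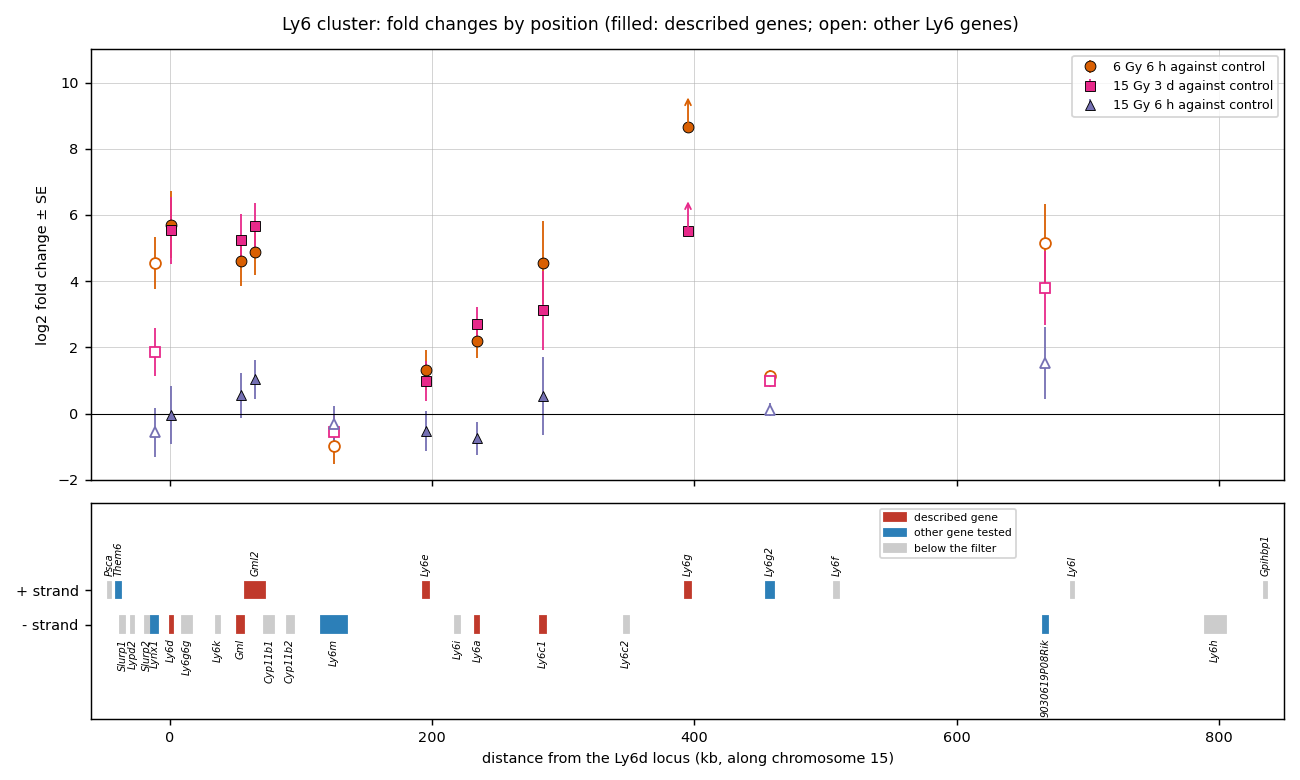
Log2 difference from the untreated control (± SE) in 6 Gy at 6 h, 15 Gy at 6 h and 15 Gy at 3 d against the distance from the Ly6d locus in kb, for the genes of the chromosome 15 stretch, with filled symbols for the 7 genes, open symbols for other tested Ly6 genes and arrows for lower bounds of Ly6g; the lower panel shows the genes on each strand. High values stand on both sides of Ly6e, which lies between Gml2 and Ly6a and shows the smallest differences among the 7 genes in 6 Gy at 6 h and 15 Gy at 3 d.

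Other genes of the stretch gave a mixed picture. Below the filter, Ly6f had 0.138 to 1.03 CPM in 6 Gy at 6 h and 0.305 to 2.11 CPM in 15 Gy at 3 d, and 0 in the controls. Ly6k had 0.162 to 0.389 CPM in 6 Gy at 6 h and 0.740 to 1.09 CPM in 15 Gy at 3 d, and 0 in the controls. Ly6c2, the near copy of Ly6c1, had 0 to 0.270 CPM in 6 Gy at 6 h and 0.123 to 0.179 CPM in the controls, which overlap. Ly6i, the closest relative of Ly6a in coding sequence (86.3% identity), was at most 0.147 CPM in any library.

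The remaining Ly6/uPAR genes are those left after the 7 genes were taken, and they carry tests. Their list was drawn up with earlier results of these data known, so the counts are not independent of that choice. Of 50 further family symbols, 45 were found and 12 were tested, 4 of them in the chromosome 15 stretch and 8 elsewhere. In 6 Gy at 6 h 5 of 12 rose and 1 fell, with a median log2 difference of 1.21, beside 28.4% of all tested genes called by edgeR's quasi-likelihood test. Over all tested genes the median log2 difference lay between -0.03 and 0.07 in each of the 11 comparisons made here. Lynx1, which modulates nicotinic acetylcholine receptors, averaged 13.1 ± 0.990 CPM in 6 Gy at 6 h and 0.560 ± 0.213 CPM in the controls (log2 difference 4.55 ± 0.80, adjusted p = 0.00019). Ly6g2 averaged 102 ± 15.7 CPM in 6 Gy at 6 h and 46.5 ± 9.35 CPM in the controls (1.13 ± 0.19, adjusted p = 0.000112). Lypd8, a secreted epithelial protein known in mouse colon for binding flagellated bacteria, averaged 6096 ± 929 CPM in 6 Gy at 6 h and 2167 ± 657 CPM in the controls (1.49 ± 0.35, adjusted p = 0.00273). The clone-named 9030619P08Rik rose as well, with 3.95 ± 2.77 CPM in 6 Gy at 6 h and 0.112 ± 0.146 CPM in the controls (adjusted p = 0.00243).

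Calls of Ly6g6d and Ly6g6c, which lie in the major histocompatibility region, were less steady. Ly6g6d rose to 3.54 ± 0.733 CPM in 6 Gy at 6 h, against 1.45 ± 0.569 CPM in the controls (log2 difference 1.28 ± 0.40, edgeR adjusted p = 0.0185), a call lost in 4 of 14 alternatives, whose adjusted p ran from 0.00711 to 0.0896. Ly6g6c fell to 0.262 ± 0.147 CPM, against 2.68 ± 0.617 CPM in the controls (-3.36 ± 1.10, adjusted p = 0.026), lost in 4 of 14 alternatives, whose adjusted p ran from 0.00323 to 0.101. At 6 h after 15 Gy, where 29% of all tested genes were called, 1 of 12 rose, Ly6g6d (1.16 ± 0.40, adjusted p = 0.0326), a call lost in 7 of 14 alternatives, with adjusted p between 0.0153 and 0.129.

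At 3 d after 15 Gy 3 of 12 rose and 1 fell, with a median log2 difference of 0.70, beside 29.4% of all tested genes. Plaur, the urokinase receptor, averaged 11.7 ± 2.24 CPM in 15 Gy at 3 d and 3.11 ± 0.807 CPM in the controls (log2 difference 1.91 ± 0.48, edgeR adjusted p = 0.00486). Ly6g2 averaged 92.2 ± 12.1 CPM in 15 Gy at 3 d and 46.5 ± 9.35 CPM in the controls (0.99 ± 0.19, adjusted p = 0.000485). The rise of 9030619P08Rik (3.79 ± 1.13, adjusted p = 0.015) was lost in 2 of 14 alternatives (adjusted p from 0.00149 to 0.0567), and the fall of Ly6g6f (-2.16 ± 0.70, adjusted p = 0.0243) in 4 of 14 (0.0027 to 0.195). Lynx1 did not pass the test in 15 Gy at 3 d, where its libraries had 1.38 to 3.17 CPM against 0.402 to 0.802 CPM in the controls.

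At 24 h the tested family genes that changed after irradiation fell. In 6 Gy at 24 h 0 of 12 rose and 3 fell, beside 33% of all tested genes called. Ly6m, a Ly6 gene of the chromosome 15 stretch, averaged 254 ± 53.2 CPM in 6 Gy at 24 h and 2820 ± 626 CPM in the controls (log2 difference -3.47 ± 0.59, edgeR adjusted p = 0.000255). Ly6g6c fell by 4.39 ± 1.17 on the log2 scale (adjusted p = 0.00735), and Lypd3 by 4.81 ± 1.40 (adjusted p = 0.0126), the second being lost in 2 of 13 alternatives (adjusted p from 0.000949 to 0.146). In 6 Gy plus CBLB502, where 37.3% of all tested genes were called, 2 of 12 fell. They were Ly6m, with 358 ± 197 CPM (-2.98 ± 0.58, adjusted p = 0.000641), and Ly6g6c (-4.31 ± 1.16, adjusted p = 0.00678).

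In 15 Gy plus CBLB502 2 of 12 fell against the controls, beside 16.9% of all tested genes. Ly6m averaged 695 ± 227 CPM in 15 Gy plus CBLB502 (log2 difference -2.02 ± 0.56, edgeR adjusted p = 0.0159), a call lost in 2 of 14 alternatives, without replicate 1 or replicate 3 of that group (adjusted p from 0.000987 to 0.0731 over all 14). Lypd8 averaged 1075 ± 139 CPM (-1.01 ± 0.34, adjusted p = 0.0479), a call lost in 10 of 14 alternatives (0.0137 to 0.208).

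Neither 15 Gy at 24 h (4.94% of tested genes called) nor CBLB502 alone (5.74%) changed any of the 12 genes by edgeR. At an unadjusted p under 0.05 there were 3 in 15 Gy at 24 h and 2 in CBLB502 alone. DESeq2 called 1 in 15 Gy at 24 h and 0 in CBLB502 alone, and limma on log2(FPKM + 1) called 0 in both. Within a dose, CBLB502 changed 0 of 12 at 15 Gy and 0 of 12 at 6 Gy by edgeR, which called 0% of all tested genes in both comparisons (867 genes at 15 Gy and 303 at 6 Gy had an unadjusted p under 0.05, and DESeq2 called 63 and 7). Without replicate 2 of 15 Gy at 24 h the count over all genes at 15 Gy was 93, with 1512 at an unadjusted p under 0.05, and at 6 Gy it was at most 2 on leaving out a replicate. At an unadjusted p under 0.05 there were 1 of 12 at 15 Gy and 0 at 6 Gy, and DESeq2 called 0 of 12 in both.

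Between doses at 6 h, 15 Gy gave lower values of 5 and higher values of 1 of the 12 genes than 6 Gy, beside 43.2% of all tested genes called by edgeR. Lynx1 had a log2 difference of -5.12 ± 0.82 (adjusted p = 3.5e-05), Lypd8 had -1.52 ± 0.35 (adjusted p = 0.00133), Ly6g2 -1.01 ± 0.19 (adjusted p = 0.000178) and 9030619P08Rik -3.61 ± 1.08 (adjusted p = 0.00974). Spaca4, a sperm acrosome protein, had -1.61 ± 0.60 (adjusted p = 0.0335), a call lost in 7 of 14 alternatives (0.0216 to 0.159). Ly6g6c was higher in 15 Gy at 6 h (4.27 ± 1.14, adjusted p = 0.00439). None of the 12 passed edgeR's test of the interaction between CBLB502 and either dose at an adjusted p of 0.05, and at an unadjusted p under 0.05 there were 1 at 15 Gy (Plaur, 0.0182) and 0 at 6 Gy.

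**Figure D4:**
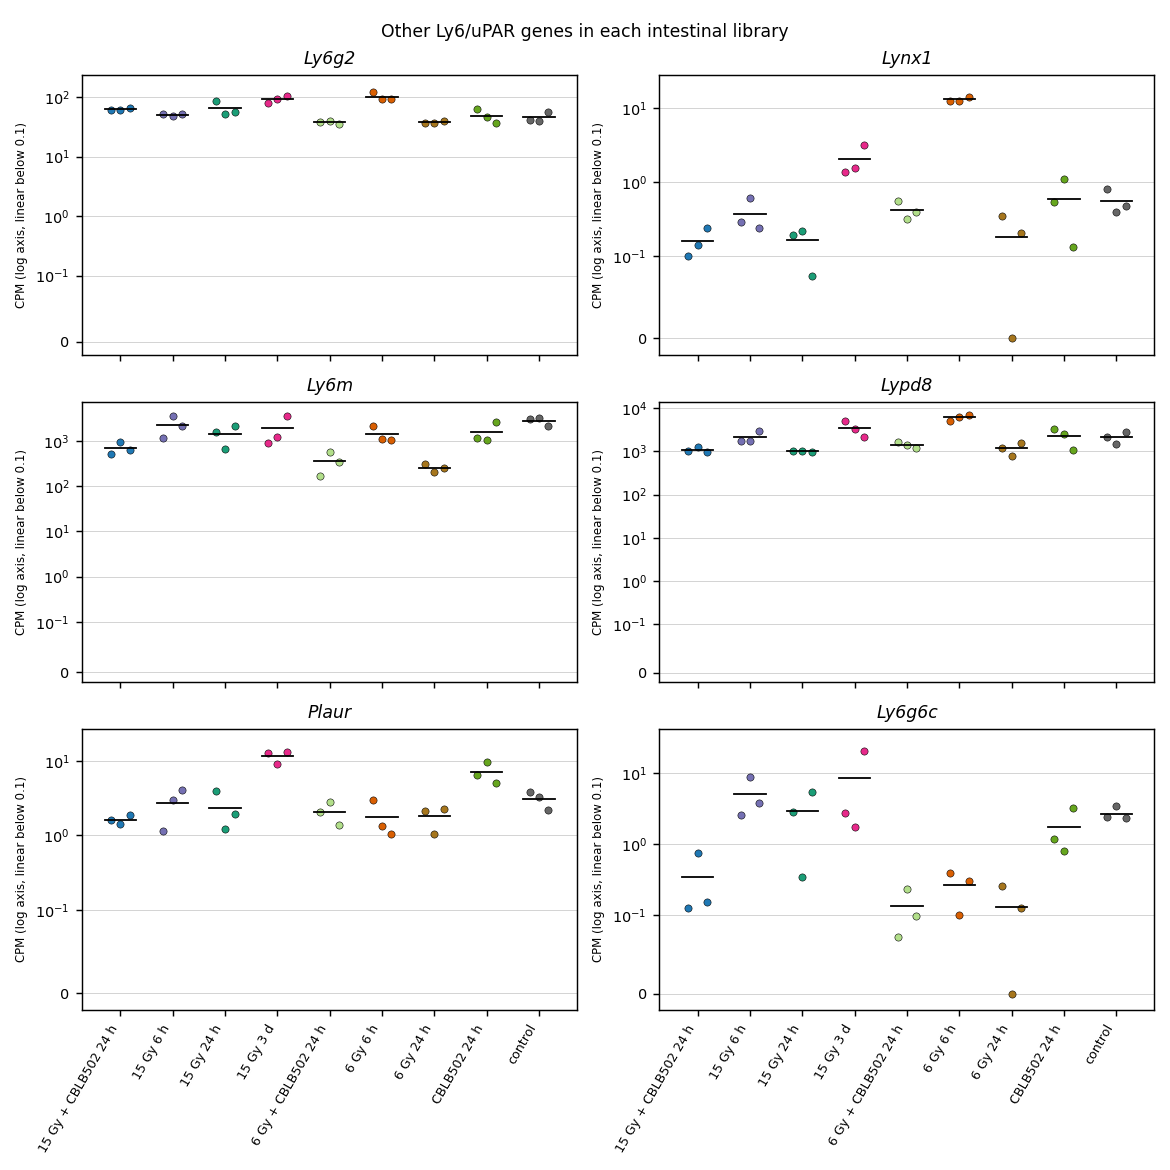
TMM-scaled CPM (log axis, linear below 0.1) in each of the 27 libraries of 6 other family genes, Ly6g2, Lynx1, Ly6m, Lypd8, Plaur and Ly6g6c, with a bar at each group mean. Lynx1 stands at 12.5 to 14.3 CPM in 6 Gy at 6 h and Plaur at 9.09 to 13.2 CPM in 15 Gy at 3 d, while Ly6m is low in both 6 Gy groups at 24 h.

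For each of the 7 genes the table was searched for the genes with the closest pattern over the 27 libraries, by Spearman's rho of log2 CPM, which shares depth and groups between the points. The 7 genes themselves, predicted and clone-named genes, pseudogenes and immune receptor segments were left out of that search. Gml was closest to Nsf (0.926), a vesicle fusion ATPase, Reg3b (0.911), a bactericidal lectin, and Ltf (0.905), which encodes lactoferrin, and Gml2 to Ltf (0.921), Nsf (0.908) and Reg3b (0.889). Ly6d was closest to Ampd3 (0.885), Tie1 (0.885) and Saa1 (0.883), and Ly6a to Ampd3 (0.895), Tie1 (0.885) and Foxd3 (0.852). Ly6e had lower values, with Sp110 (0.824), Dhx58 (0.797) and Oas2 (0.783), which are interferon-stimulated genes. Ly6c1 was closest to Yars (0.873), Nusap1 (0.842) and Znrf2 (0.842). Ly6g, at 0 in 21 libraries, was closest to Cenpm (0.738), Rbms1 (0.728) and Jpt2 (0.728). Among the 7 genes, rho was 0.987 for Gml with Gml2, 0.908 for Gml2 with Ly6d, 0.905 for Gml with Ly6d, 0.786 for Ly6a with Ly6d, 0.695 for Ly6a with Ly6e and 0.357 for Gml with Ly6e.

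Genes of epithelial defence were called in groups with high Gml and in groups with low Gml. Of 14 tested antimicrobial and defence genes, 6 rose and 0 fell in 6 Gy at 6 h (median log2 difference 1.61), 5 rose and 1 fell in 15 Gy at 3 d (0.89), and 4 rose and 0 fell in CBLB502 alone, although the median there was below 0 (-0.18). Over all tested genes, 28.4% were called in 6 Gy at 6 h, 29.4% in 15 Gy at 3 d and 5.74% in CBLB502 alone. Without control replicate 2 the count in 6 Gy at 6 h was 3, and in CBLB502 alone it was 1 without control replicate 1 or 2 or CBLB502 replicate 2. Fut2, a fucosyltransferase of the gut surface, averaged 301 ± 22.4 CPM in 6 Gy at 6 h, 184 ± 58.0 CPM in 15 Gy at 3 d and 46.5 ± 23.0 CPM in CBLB502 alone, against 1.89 ± 0.434 CPM in the controls. Its edgeR adjusted p was 9.96e-09, 3.09e-08 and 8.54e-05 in that order. In 15 Gy at 6 h, where Gml overlapped the controls, 2 of 14 fell (median -0.78), beside 29% of all tested genes called, and the count was 0 without control replicate 1 or 2 or replicate 1 or 3 of 15 Gy at 6 h. In 6 Gy at 24 h, where Gml lay below the controls, 8 fell (median -2.35), beside 33%. In 3 more groups Gml overlapped the controls. Of the 14, 0 rose and 6 fell in 15 Gy plus CBLB502, beside 16.9%, and 1 rose and 4 fell in 6 Gy plus CBLB502, beside 37.3%. In 15 Gy at 24 h 0 rose and 0 fell, beside 4.94%.

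Of 28 tested p53 target genes, the group to which human GML belongs, rises were found in irradiated groups with high Gml and in irradiated groups without. At 15 Gy, 14 rose and 1 fell at 6 h (median log2 difference 0.72), and at 24 h 14 rose and 1 fell (0.59), 2 groups in which Gml overlapped the controls, beside 29% and 4.94% of all tested genes called. The total at 24 h was 3 with the compared groups alone. In 6 Gy at 6 h 12 rose and 6 fell (0.46), and in 15 Gy at 3 d 13 rose and 3 fell (0.50), a total that was 10 without control replicate 2, beside 28.4% and 29.4% of all tested genes. In CBLB502 alone 0 rose and 2 fell (-0.02), beside 5.74%, while Gml was at 98.8 CPM. That count was 0 without control replicate 1 or 2 or CBLB502 replicate 1 or 2, and 4 without replicate 3 of either group. Ccng1, a cyclin induced by p53, rose by 1.43 ± 0.15 in 15 Gy at 6 h, 2.46 ± 0.16 in 15 Gy at 24 h and 2.16 ± 0.15 in 15 Gy at 3 d on the log2 scale. It was also called in 6 Gy at 6 h, where Gml was high, a call lost in 0 of 14 alternatives.

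Of 41 tested interferon-stimulated genes, the group to which Ly6e belongs and by which Ly6a is raised, 7 rose and 0 fell in 6 Gy at 6 h (median log2 difference 0.14), beside 28.4% of all tested genes called. Cxcl9, a T cell chemokine, rose by 2.21 ± 0.37 (edgeR adjusted p = 0.00012) and Gbp2, a guanylate-binding protein, by 1.88 ± 0.38 (adjusted p = 0.000845). At 3 d after 15 Gy, the group with the highest mean Ly6a, 1 rose and 1 fell (0.19), beside 29.4%, and 4 were called without replicate 1 of that group. At 24 h after 15 Gy, where Ly6a and Ly6e lay below all controls, 0 rose and 7 fell (-0.91), beside 4.94%. That count was 0 with the compared groups alone, 2 by limma and 18 by DESeq2, 3 without control replicate 1 or 3, and 2 without replicate 2 or 3 of 15 Gy at 24 h. Ly6a and Ly6e overlapped the controls in 6 Gy plus CBLB502, where 0 of 41 rose and 15 fell (-0.84), beside 37.3%. They also overlapped them in 15 Gy at 6 h, where 2 rose and 7 fell (-0.19), beside 29%, 9 in total. With single libraries left out this total lay at 4 (control replicate 3 or 15 Gy at 6 h replicate 2), 5 (control replicate 2 or 15 Gy at 6 h replicate 1) or 13 (15 Gy at 6 h replicate 3), and it was 3 with the compared groups alone. Of 16 tested genes of the fetal-like, regenerating epithelium, 11 rose and 0 fell in 15 Gy at 3 d (median 1.42), beside 29.4% of all tested genes, among them Areg, a growth factor of the EGF family, at 1.79 ± 0.20 (adjusted p = 1.77e-06). At 6 h after 6 Gy, where Ly6a also lay above the controls, 2 rose and 5 fell (-0.55), beside 28.4%, and Areg fell by 1.43 ± 0.20.

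Markers of the cells on which these proteins are known were set beside them. The summed level of 18 neutrophil genes was 19.9 to 38.9 CPM in 6 Gy at 6 h, 22.1 to 30.1 CPM in 15 Gy at 3 d and 16.6 to 19.9 CPM in CBLB502 alone, against 7.19 to 9.72 CPM in the controls. Ltf made up much of it, with 11.6 to 17.4 CPM in 6 Gy at 6 h and 3.01 to 5.46 CPM in the controls. Mpo, Elane, Ngp, Camp, Retnlg, Mmp8, Stfa2l1, Prtn3, Ctsg and Fcnb, 10 of the 18, were at 0 in all 3 libraries of 6 Gy at 6 h, the group with the highest Ly6g, and S100a8 was at most 0.304 CPM there. S100a9 had 0.189 to 3.52 CPM in 6 Gy at 6 h and 0.200 to 0.723 CPM in the controls. At 3 d after 15 Gy 8 of the 18 were at 0, and in the controls 9 were, the same genes as in 6 Gy at 6 h apart from Retnlg. Of the 3 neutrophil genes that were tested, 2 rose in 6 Gy at 6 h, beside 28.4% of all tested genes called. The part of these in the Ly6g values was not tested.

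The summed level of 14 endothelial genes was 5.72 to 11.5 CPM in 6 Gy at 6 h and 12.1 to 24.9 CPM in 15 Gy at 3 d, against 3.27 to 6.10 CPM in the controls, and its part in the Ly6c1 and Ly6a values was not tested. It was 8.58 to 19.9 CPM in 6 Gy plus CBLB502, where Ly6c1 lay above the controls and Ly6a overlapped them. In 6 Gy at 24 h, where Ly6c1 also lay above the controls, the endothelial sum was 4.47 to 8.35 CPM and overlapped them. The sum of 12 monocyte genes was 135 to 201 CPM in 6 Gy at 6 h and 126 to 167 CPM in 15 Gy at 3 d, against 159 to 242 CPM in the controls. It was 147 to 166 CPM in 6 Gy at 24 h and 125 to 182 CPM in 6 Gy plus CBLB502, the other groups with Ly6c1 above the controls. In the last of these 3 of the 6 tested monocyte genes rose and 1 fell (median log2 difference 1.18), beside 37.3% of tested genes. In 6 Gy at 24 h 1 of them rose and 2 fell, beside 33%. Csf1r, the receptor of a macrophage growth factor, had 2.97 to 14.4 CPM in 6 Gy at 24 h and 11.1 to 18.5 CPM in 6 Gy plus CBLB502, against 0.897 to 3.76 CPM in the controls. Lyz2, a lysozyme of myeloid cells, had 10.7 to 16.0 CPM in 6 Gy plus CBLB502, against 2.96 to 4.13 CPM in the controls. In 6 Gy at 24 h Lyz2 had 3.68 to 14.2 CPM, overlapping the controls. Cx3cr1 had 1.82 to 3.97 CPM in 6 Gy plus CBLB502 and 0.0535 to 1.01 CPM in the controls. Cd14, another monocyte marker, did not rise. It had 3.62 to 4.44 CPM in 6 Gy at 24 h and 3.74 to 5.01 CPM in 6 Gy plus CBLB502, against 4.38 to 6.56 CPM in the controls. The part of these in the Ly6c1 values was not tested.

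For Ly6d, 12 squamous genes summed to 3.32 to 6.07 CPM in 6 Gy at 6 h and 15.6 to 23.4 CPM in 15 Gy at 3 d, against 1.62 to 4.82 CPM in the controls, with Trp63 at 0 in every library. Krt5, a basal keratin, had 0.260 to 1.27 CPM in 15 Gy at 3 d and 0 in every other group, and Krt4 reached 0.0509 CPM in 15 Gy at 3 d and was 0 elsewhere. At 0 in all 3 libraries of a group were 9 of the 12 genes in 6 Gy at 6 h, 4 in 15 Gy at 3 d and 9 in the controls. The 11 B cell genes summed to 1.305 to 13.9 CPM in 6 Gy at 6 h and 7.88 to 37.5 CPM in 15 Gy at 3 d, against 12.2 to 29.2 CPM in the controls, overlapping in both. In 6 Gy at 6 h, beside 28.4% of all tested genes called, 0 of the 3 B cell genes tested rose and 2 fell (median log2 difference -4.07). The B cell sum was above the controls in both 24 h groups of 6 Gy, where Ly6d lay below the controls without CBLB502 and overlapped them with it. The part of the squamous and B cell genes in the Ly6d values was not tested.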

How the data were processed

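Intestinal RNA of 27 libraries, 3 in each of 9 labelled groups, was used as whole-number counts per gene, deposited by the authors without normalization, and as FPKM values, computed by the authors per the file headers, scaled to gene length and mapped fragments, with 0.0001 in place of 0. Programs named in the submitters' processing notes are Bowtie 0.12.2, HISAT2 2.0 and StringTie 1.3.0, with build mm8. The sources used here do not give the strand setting or the handling of multiply mapped reads. Positions are on GRCm38, since 51957 of 55141 identifiers matched to GENCODE vM21 (94.2%) agree in start and end.

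Libraries held 57.4 to 87.1 M counts. CPM are counts per 1 M counts of the tested genes of a library, corrected by its TMM factor. This factor was 1.23 to 1.36 in 6 Gy at 24 h, 1.24 to 1.43 in 6 Gy plus CBLB502 and 0.861 to 0.864 in the controls. Genes with at least 1 FPKM in at least 3 libraries were tested (11118 of 55401, with 23888 at 0 throughout) with edgeR 4.0.16 in R 4.3.3, a quasi-likelihood F test on all 27 libraries with TMM scaling. P-values were adjusted by Benjamini-Hochberg within each of 11 comparisons and called under 0.05. Log2 differences of the 7 genes come from the same fit with its standard errors. The common dispersion of 0.0961 is a coefficient of variation of 31.0% between replicates. Libraries of a group differed by more than counting error, so none was counted as a duplicate.

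The 7 genes, the gene lists and the comparisons were chosen with earlier results of these data known. Every further Ly6/uPAR gene past the threshold is named, up to 4 genes of each other list described, by smallest adjusted p, and the 3 genes closest to each of the 7 by Spearman's rho. Markers of other cells are given as summed CPM. On simulated counts for 15 Gy at 3 d against control (11118 genes), 18.2% of genes changed 1.5-fold, 58.2% of those changed 2-fold and 77.6% of those changed 4-fold were recovered. The simulation changed 66, 67 and 67 genes in that order, whereas 29.4% of tested genes were called in the data. These rates therefore need not carry over to the data. Alternatives were median-ratio scaling, no filter, the replicate number as a block, limma 3.58.1 on log2(FPKM + 1) and log2(FPKM + 0.1), DESeq2 1.42.0, the compared groups alone, all groups but the 6 libraries taken 24 h after 6 Gy, and each replicate left out. Python 3.11.15, pandas 2.3.3, scipy 1.17.1 and matplotlib 3.10.9 were used for the descriptions and figures. Intervals, floors and detection limits cover counting error only.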

Additional observations from a re-analysis of the deposited data

Results flagged for a closer look

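Gml had a log2 difference from the controls of 4.62 in 6 Gy at 6 h and of -2.83 in 6 Gy at 24 h, with all 3 libraries above the controls at 6 h and all 3 below them at 24 h. Gml2 had 4.88 in 6 Gy at 6 h and -2.51 in 6 Gy at 24 h, in the same way. Ly6d had 5.71 in 6 Gy at 6 h and -2.16 in 6 Gy at 24 h. Ly6a had 2.20 in 6 Gy at 6 h and -1.19 in 6 Gy at 24 h. In FPKM, its libraries of 6 Gy at 24 h overlapped the controls. At 15 Gy, Ly6a had -2.63 at 24 h, with all libraries below the controls, and 2.70 at 3 d, with all libraries above them. These opposite directions drew attention by the order of the libraries in CPM alone, and the difference between the times was not tested. In 6 Gy at 24 h, where 33% of all tested genes were called, 19 of 22 pancreatic enzyme genes were called higher than in the controls. The stromal and B cell sums were higher as well. The part of these in the values was not tested.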

How the results depend on the processing

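The 66 log2 differences of 6 of the 7 genes (Ly6g has bounds only) gave 906 recomputed values under 13 or 14 alternatives each. Of these values, 819 stayed within 1 SD of the replicates, 87 moved further (51 on leaving out a replicate, 25 by limma on log2(FPKM + 1) and 11 on log2(FPKM + 0.1)) and 0 reversed where the groups did not overlap. Of the 12 other family genes, the number called in 15 Gy at 6 h against control was 1, and it was 3 by limma with either pseudocount and by DESeq2, 0 with the compared groups alone and 2 without the 6 libraries of 6 Gy at 24 h. In 15 Gy at 24 h it was 0, and 1 by DESeq2. In 15 Gy at 3 d it was 4, and 7 of 39 without the filter. In 15 Gy plus CBLB502 against control it was 2, and 1 without the filter, with the replicate block, by limma on log2(FPKM + 1) and without the 6 libraries, and 4 by DESeq2. The cause was not tested beyond the added genes without the filter. Leaving out a replicate gave 4 to 6 calls in 6 Gy at 6 h, 0 to 1 in 15 Gy at 6 h, 2 to 4 in 6 Gy at 24 h, 0 to 0 in 15 Gy at 24 h, 2 to 5 in 15 Gy at 3 d (2 without control replicate 2), 0 to 0 in CBLB502 alone, 0 to 2 in 15 Gy plus CBLB502 (0 without its replicate 1 or 3), 2 to 2 in 6 Gy plus CBLB502, 0 to 0 for CBLB502 within each dose and 5 to 6 for 15 Gy against 6 Gy at 6 h. Calls in 15 Gy at 6 h ended without control replicate 1 or 2 or any library of that group. Same-numbered libraries did not deviate together (correlations -0.152 to 0.326), so the numbers pair nothing, and the block moved no other count by over 1.5 times. Over all genes, 549 were called in 15 Gy at 24 h, 12 with the compared groups alone, 1071 by DESeq2 and 238 by limma on log2(FPKM + 1). In 6 Gy at 24 h edgeR called 1843 higher and 1826 lower, while limma on log2(FPKM + 1) called 5806 higher and 440 lower. Depth limits Ly6g and Ly6c1, whose control values rest on 0 to 20 counts in a library.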
